A study of Homo sapiens with 36 samples.

Results

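The genes described here are the centrosomal CEP genes and the golgins measured in A549, an established cell line that comes from an adenocarcinoma of the human lung. They were chosen with earlier results of these data known, but which genes belong was set by name. Every gene was taken whose single symbol is CEP followed by a number, with a final L allowed, or GOLGA or GOLGB followed by a number, without pseudogenes. This gave 44 genes, 35 of them CEP genes and 9 golgins, out of 18417 genes named by 1 symbol. Each gene was read from 1 transcript cluster, the set of array probes over its exons, and a gene with several was read from the brightest on average. Only CEP170 had a second cluster of its own.

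RNA of the cells was hybridised to 36 Human Gene 1.0 ST arrays, with 12 groups of 3. Untreated control cells and those given cigarette smoke extract (CSE) at 1%, 5% or 10% were collected at 1, 3 and 5 weeks, all in medium with low serum that was changed daily and with weekly passage. The extract was smoke drawn through medium, filtered and diluted. The study calls the replicates independent experiments of this 1 line, and the p-values rest on the spread among them. The labels of the 5-week controls conflict: their titles and codes give 5 weeks, but 3 weeks stands in their descriptions and, for replicates 1 and 2, in the source names. They are used here as 5-week controls, and the exposures at 5 weeks are also compared with the controls of weeks 1 and 3. The comparison between control weeks and the interactions rest on them throughout.

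The centrosome is a pair of centrioles inside a shell of pericentriolar material, and it organises the microtubules of the cell. It is copied once in each cell cycle, and its older centriole can dock at the cell surface as the base of a primary cilium; CEP proteins build the centrioles, their appendages and the gate of the cilium. Golgins are long coiled-coil proteins anchored on the Golgi apparatus, where they catch incoming vesicles and hold the stacked membranes together. Here golgins were counted by name, which takes in GOLGA7, a partner of a palmitoyltransferase, and its paralog GOLGA7B. The golgin counts below are therefore counts of names and not of such tethers.

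In the 5-week controls most of these genes were lower than the mean of the other control weeks. Against the 1-week controls alone 18 of the 44 genes were lower, where 18.4% of all clusters were. Of the 44 genes, 32 were lower and 2 were higher than the mean of the 1-week and 3-week controls in the limma fit, at an adjusted p (Benjamini-Hochberg, over the 33297 transcript clusters of the array) under 0.05. Over all clusters 21.3% were called lower and 34.2% higher in this comparison, and over the 18417 genes named by 1 symbol 28.3% and 30.9%. The median difference of the 44 genes was -0.52 on the log2 scale, where the median of all clusters was 0.11. For 18 of the genes all 3 of the 5-week controls lay below all 6 of the other controls, against 13% of all clusters, and for 1 gene they lay above, against 19.8%. By the study's own thresholds, a log2 difference beyond 1 and B above 0, 8 of the genes were lower: GOLGA4, GOLGB1, GOLGA5, CEP57, CEP120, CEP126, CEP170 and CEP350; 2.99% of all clusters met these. For 30 of the genes the lowest of the 36 arrays was a 5-week control. The share of all clusters for which this held was not computed, so this count has no background to be read against. In such bulk RNA a smaller share of cells that express a gene and less of its RNA per cell cannot be told apart.

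**Figure D1:**
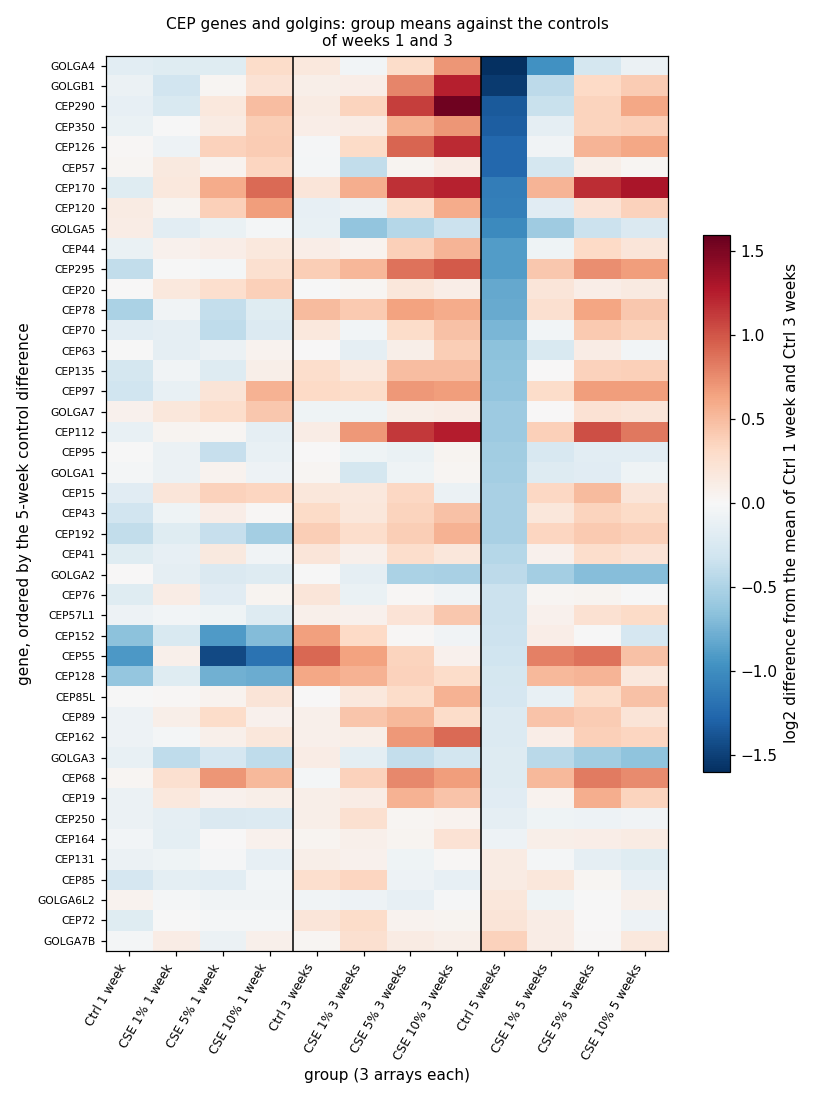
Group means of the 44 genes (rows, ordered by the difference of the 5-week controls) in the 12 groups (columns, 3 arrays each), as log2 difference from the mean of the 1-week and 3-week controls; red is higher and blue lower, and vertical lines part the weeks. The column of the 5-week controls is blue for most rows, from -1.59 for GOLGA4 to 0.37 for GOLGA7B, and the 5-week columns of CSE 5% and 10% are not.

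The promoters of 5 of these genes are shown because the genes mark the patterns described below: GOLGB1 and CEP290 were among the genes that fell furthest in the 5-week controls, CEP170 fell there and rose with CSE, CEP55 moved between control weeks, and CEP164 had the smallest difference. Each is the 250 bases before the gene's start in RefSeq on GRCh38.p14, written 5′ to 3′ on the strand of the gene. The capitals mark letters searched for on both strands: the CCAAT box (CCAAT), the GC box (GGGCGG), the cell cycle element CHR (TTTGAA), the core of the xenobiotic response element (GCGTG) and that of the antioxidant response element (TGACNNNGC).
GOLGB1, chr3:121749742-121749991, minus strand: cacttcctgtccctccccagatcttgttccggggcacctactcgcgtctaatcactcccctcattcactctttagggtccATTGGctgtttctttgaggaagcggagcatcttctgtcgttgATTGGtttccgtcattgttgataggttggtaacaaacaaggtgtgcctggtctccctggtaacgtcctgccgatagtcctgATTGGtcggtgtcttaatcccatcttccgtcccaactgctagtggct
CEP290, chr12:88142089-88142338, minus strand: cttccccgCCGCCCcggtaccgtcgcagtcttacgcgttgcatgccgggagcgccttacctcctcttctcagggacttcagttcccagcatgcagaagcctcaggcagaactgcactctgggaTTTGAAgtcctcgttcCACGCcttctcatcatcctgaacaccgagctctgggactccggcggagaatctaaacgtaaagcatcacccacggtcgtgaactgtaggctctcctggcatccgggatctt
CEP170, chr1:243255282-243255531, minus strand: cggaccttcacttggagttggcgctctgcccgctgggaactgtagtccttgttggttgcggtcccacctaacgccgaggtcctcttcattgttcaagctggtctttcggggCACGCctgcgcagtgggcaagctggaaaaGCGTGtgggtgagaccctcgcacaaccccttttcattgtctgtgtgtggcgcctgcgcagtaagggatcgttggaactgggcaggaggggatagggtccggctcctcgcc
CEP55, chr10:93496362-93496611, plus strand: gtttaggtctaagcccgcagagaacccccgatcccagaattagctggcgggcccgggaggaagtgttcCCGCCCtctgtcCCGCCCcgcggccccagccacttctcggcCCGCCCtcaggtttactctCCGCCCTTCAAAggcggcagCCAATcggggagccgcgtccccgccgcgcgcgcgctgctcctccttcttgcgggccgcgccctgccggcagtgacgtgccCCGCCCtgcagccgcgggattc
CEP164, chr11:117327604-117327853, plus strand: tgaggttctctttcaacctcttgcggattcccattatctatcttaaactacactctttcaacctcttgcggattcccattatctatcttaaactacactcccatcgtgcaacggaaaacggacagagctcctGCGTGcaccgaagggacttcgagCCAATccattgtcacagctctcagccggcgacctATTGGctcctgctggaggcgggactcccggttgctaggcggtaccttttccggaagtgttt
The GOLGB1 stretch holds 3 CCAAT boxes, each read on the opposite strand. That of CEP55, a gene needed for the final cut between daughter cells, holds 5 GC boxes, 1 CCAAT box and 1 CHR. The CEP170 stretch holds 2 GCGTG cores and no CCAAT box.

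Over the whole 300-base window, which runs on past the start, 39 of the 44 genes had a RefSeq entry. A CCAAT box lay in 20 of the 39 (51.28%), where 36.28% of all 14239 genes with an entry held one, and a GC box in 29 (74.36%, against 59.99%). CHR letters lay in 12 (30.77%, against 11.91%), the GCGTG core in 24 (61.54%, against 44.66%) and the antioxidant core in 6 (15.38%, against 14.6%). The GC content of the windows was alike, with a median of 63.67% in these genes and 63% in all. Among the 28 genes with an entry that were lower in the 5-week controls, 13 held a CCAAT box and 8 the CHR letters, and among the other 11, 7 and 4 did. A match of letters is a description of the window and not a bound site. None of the 5 strings contains another. Several starts were listed for 8 of the genes, and the first was used.

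Among the clusters chosen to represent the 44 genes, 2 golgins had the furthest falls. GOLGA4, a tether of the trans-Golgi, read 7.38, 7.52 and 6.96 (log2 level) in the 5-week controls and between 8.21 and 9.19 in the other 6 controls, with a median of 8.99. GOLGB1, known as giantin and the longest golgin, read 7.34, 7.56 and 7.45 against 8.38 to 9.33, with a median of 9.03. In both genes the groups did not overlap. GOLGA4 was lower by 3.02-fold (log2 difference -1.59, SE 0.306, adjusted p = 9.176e-05) and GOLGB1 by 2.88-fold (log2 difference -1.53, SE 0.281, adjusted p = 5.475e-05). GOLGA5, the golgin-84 that receives vesicles moving within the Golgi, read 8.63, 9.55 and 9.53 against 9.95 to 10.49, and differed by -1.02 (SE 0.136, adjusted p = 9.237e-07). Replicate 1 of the 5-week controls was the lowest of its group in GOLGA5, GOLGA1 and GOLGA7, and part of their difference came from it. GOLGA7, a partner of a palmitoyltransferase, read 8.96 in that array and 9.79 and 9.75 in the other two, against 9.87 to 10.19; its difference of -0.58 became -0.31 without replicate 1. GOLGA1, or golgin-97, likewise went from -0.55 to -0.33, and both were still called.

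The other golgins moved less or the other way. GOLGA2, or GM130, which holds the cis-Golgi together, read 7.95, 8.09 and 8.23 against 8.32 to 8.67, a difference of -0.42 (SE 0.0782, adjusted p = 6.496e-05). GOLGA3, or golgin-160, read 8.83, 8.94 and 9.01 against 8.99 to 9.36, a difference of -0.21 (adjusted p = 0.01757). The GOLGA3 arrays overlapped, and its difference was -0.08 after cyclic loess and no longer called. GOLGA7B, the paralog of GOLGA7, went the other way, with 5.39, 5.68 and 5.30 against 5.00 to 5.17, and was higher by 0.37 (SE 0.0758, adjusted p = 0.0001686). It was the 1 gene whose 5-week controls lay above all others, but after cyclic loess its difference was 0.11 and not called. GOLGA6L2, of a family with near-identical copies, differed by 0.18 (adjusted p = 0.0733). Clusters that carry several symbols were not counted as members: of the 37 with a GOLGA6 or GOLGA8 name, 4 were lower and 15 higher.

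Among the genes for centriole duplication and the pericentriolar material, 10 of 14 were lower, with a median difference of -0.57. CEP57, which with CEP63 sits around the centriole wall, read 6.84, 7.24 and 7.38 in the 5-week controls and 7.89 to 8.75 in the others. CEP120, needed for centriole growth, read 7.45, 7.84 and 7.81 against 8.45 to 9.13. Neither gene overlapped between the groups. Their differences were -1.26 (SE 0.208, adjusted p = 1.483e-05) and -1.09 (SE 0.161, adjusted p = 3.438e-06). CEP44 fell by 0.90 (SE 0.154, adjusted p = 2.409e-05) and CEP63 by 0.65. CEP72, a protein of the centriolar satellites that surround the centrosome, was the CEP gene called higher, by 0.20 (SE 0.0719, adjusted p = 0.01898). Its 5-week values of 7.72, 7.43 and 7.51 overlapped those of the 3-week controls at 7.52, 7.57 and 7.52. Without replicate 1 the CEP72 difference was 0.12 and not called, and against the 3-week controls alone it was 0.01. CEP131, another satellite protein, differed by 0.13 (adjusted p = 0.1283) and CEP85 by 0.13 (adjusted p = 0.1124).

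Of the genes for the appendages of the older centriole and for the linker between centrioles, 6 of 8 were lower, with a median of -0.25. The CEP128 call (adjusted p = 0.04764) was lost without any of 7 single arrays and under 3 other settings. That of CEP89 was lost without either of 2 single arrays and under 3 other settings, and that of CEP68 without 1 array and under 2 other settings. CEP350, which anchors microtubules at the centriole, read 7.64, 8.19 and 8.30 against 8.79 to 9.66, a difference of -1.32 (SE 0.217, adjusted p = 1.374e-05). CEP170, a protein of the subdistal appendages, read 7.32, 7.92 and 8.16 against 8.28 to 9.25, a difference of -1.10 (SE 0.189, adjusted p = 2.306e-05). Both were below every other control array. The second cluster of CEP170 differed by -1.67 (SE 0.182, adjusted p = 6.657e-08), further than the first; CEP170 also has a pseudogene copy, and how far its probes read that copy was not tested. CEP164, of the distal appendages that dock the centriole to the membrane, read 7.08, 7.06 and 7.25 against 7.03 to 7.35, and its difference was -0.08 (SE 0.0653, adjusted p = 0.3315). CEP250, the linker protein C-Nap1, differed by -0.14 (adjusted p = 0.06897).

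The cilium and transition zone genes were lower in 4 of 6 cases, with a median of -0.63. CEP290, the scaffold of the transition zone and a gene of several ciliopathies, read 5.37, 5.25 and 4.74 against 5.72 to 6.99. CEP126, a protein of the base of the cilium, read 5.95, 5.91 and 5.82 against 6.60 to 7.66. The other controls of both genes were themselves spread over more than 1 log2 unit. The difference was -1.34 for CEP290 (SE 0.354, adjusted p = 0.002324) and -1.26 for CEP126 (SE 0.247, adjusted p = 0.0001141). Of the remaining 7 CEP genes 5 were lower. CEP20, which acts in the forming of cilia, read 9.17, 10.08 and 10.00 against 10.40 to 10.66, a difference of -0.82 (SE 0.117, adjusted p = 2.369e-06) that was -0.53 without replicate 1.

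**Figure D2:**
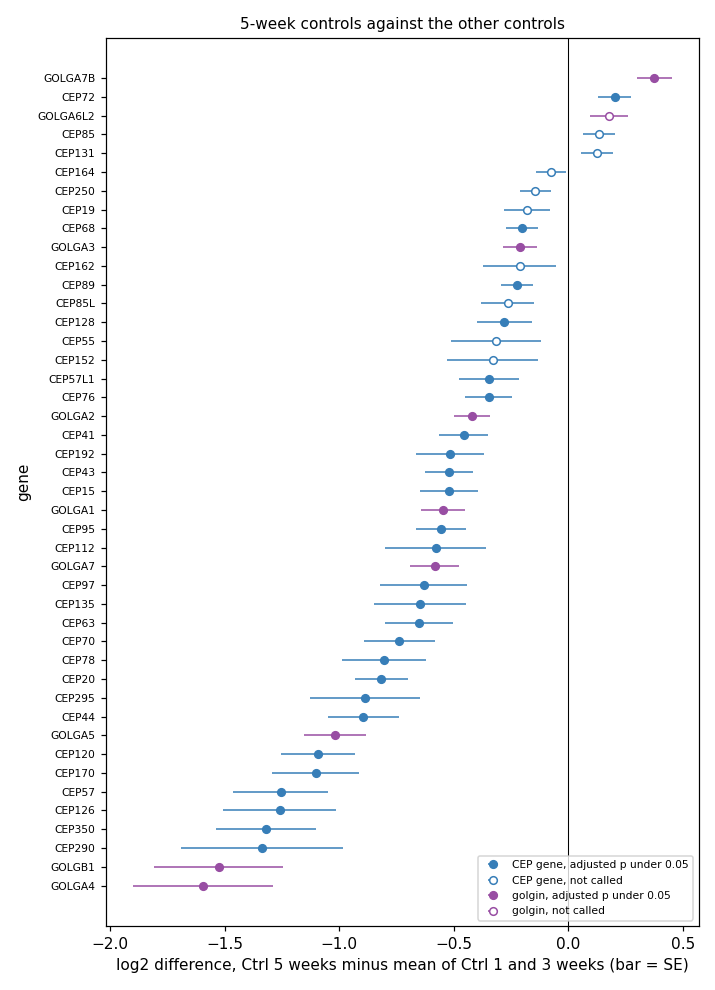
Difference of the 5-week controls from the mean of the 1-week and 3-week controls for each of the 44 genes (log2, horizontal axis; bars are the SE; blue CEP genes, purple golgins; filled where the adjusted p was under 0.05). Of the 34 filled points 32 lie left of 0, and CEP72 and GOLGA7B lie right of it.

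Replicate 1 was the 5-week control furthest from the rest. The median deviation of the 44 genes from their own means over the controls of weeks 1 and 3 was -0.72 there. It was -0.43 and -0.35 in replicates 2 and 3, and 24 genes were lower without replicate 1. The share of all clusters called lower without replicate 1 was not computed. The spread of all values within an array was smaller in the 5-week controls, with an SD of 2.15 to 2.21 against 2.25 to 2.31 in the other 33 arrays. Over all genes, those of high signal were more often lower in these 3 arrays and those of low signal higher. Genes with a mean signal of 6 to 7 had a median difference of 0.15 over all genes and -0.52 over the 11 members. At 8 to 9 the medians were -0.18 and -0.55 over 9 members, and at 9 to 10 they were -0.25 and -1.10 over 5 members. The member median lay below that of genes of like signal in each of these 3 ranges. The share called lower also rose with signal: it was 14% of all genes at 6 to 7, where 9 of 11 members were lower, and 31.8% at 7 to 8, where 7 of 11 were. At 8 to 9 it was 48.7%, against 8 of 9 members, at 9 to 10 it was 55.8%, against 5 of 5, and from 10 up 52.1%, against 2 of 2. The part that signal compression has in these differences was not tested.

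**Figure D3:**
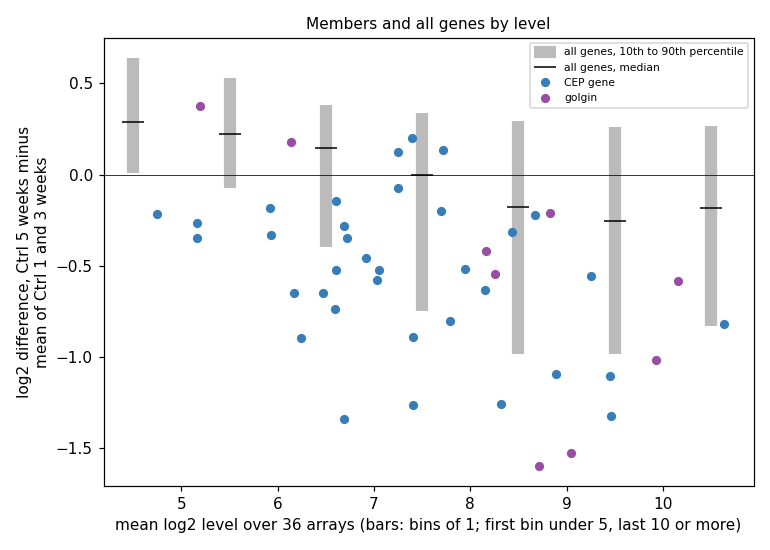
Difference of the 5-week controls (log2, vertical axis) against the mean log2 signal over 36 arrays (horizontal axis) for the 44 genes, with grey bars from the 10th to the 90th percentile of all genes in each range of signal and a black line at their median. The medians of all genes run from 0.29 under 5 to -0.25 at 9 to 10, and the points of most members lie below the line of their range.

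Other genes of the same structures gave like counts. Of 46 measured centrosome genes without a CEP name 28 were lower and 5 higher, with a median of -0.41, and of 29 other Golgi tethers 20 were lower, with a median of -0.38. Against the mean of both control weeks the list of 22 proliferation genes went the other way, with 14 higher, 4 lower and a median of 0.51. All 22 were higher in the 3-week than in the 1-week controls, as given below. The 14 that lay above the mean of both weeks therefore also lay above the 1-week controls. The 4 that lay below it also lay below the 3-week controls. The list was not compared with either control week alone, so the direction of the 14 against the 3-week controls is not given here. Of 25 housekeeping genes 8 were lower and 3 higher, with a median of -0.06. The epithelial markers KRT8 and KRT18 lay at the 99.7th and 99.6th percentile of all clusters, and the 8 alveolar type II markers lay between the 29th percentile (LAMP3) and the 76.5th (ABCA3), with SFTPC at the 39th and SFTPD at the 56.7th.

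The other control weeks differed as well, in fewer genes. Between the 3-week and the 1-week controls 10 members were higher and 0 lower in the limma fit, where 6.23% and 5.27% of all clusters were. At an unadjusted p under 0.05, 17 members were higher and 0 lower, and the share of all clusters at that threshold was not computed. CEP55 read 9.42, 8.98 and 9.56 at 3 weeks and 7.70, 7.63 and 7.15 at 1 week, and the 2 groups did not overlap. It was higher by 1.83 (SE 0.227, adjusted p = 1.174e-06). CEP152, which recruits the kinase that starts centriole duplication, was higher by 1.30 (SE 0.231, adjusted p = 0.0002249) and CEP128, of the subdistal appendages, by 1.23 (SE 0.138, adjusted p = 1.81e-07). CEP78, CEP192, CEP43, CEP85, CEP76, CEP41 and CEP72 were higher by 1.01 down to 0.38. All 22 proliferation genes were higher at 3 weeks too, with a median of 1.63, and their part in the member values was not tested. Golgins were absent from these 10.

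The difference of the 5-week controls in these genes therefore depended on the reference. CEP55 differed by -0.32 from the mean of both weeks (adjusted p = 0.174). Against the 3-week controls alone CEP55 was at -1.23 and CEP128 at -0.90, and against the 1-week controls alone they were at 0.60 (adjusted p = 0.03221) and 0.34 (adjusted p = 0.04708). CEP152 stood at -0.98 and 0.32, and CEP78 at -1.31 and -0.30. GOLGA4 was at -1.77 and -1.42, GOLGB1 at -1.62 and -1.43, and CEP290 at -1.47 and -1.21, so that these 3 kept their direction and call against both. In all, 34 genes were lower against the 3-week controls, where 21.8% of all clusters were, and 18 against the 1-week controls, where 18.4% were.

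**Figure D4:**
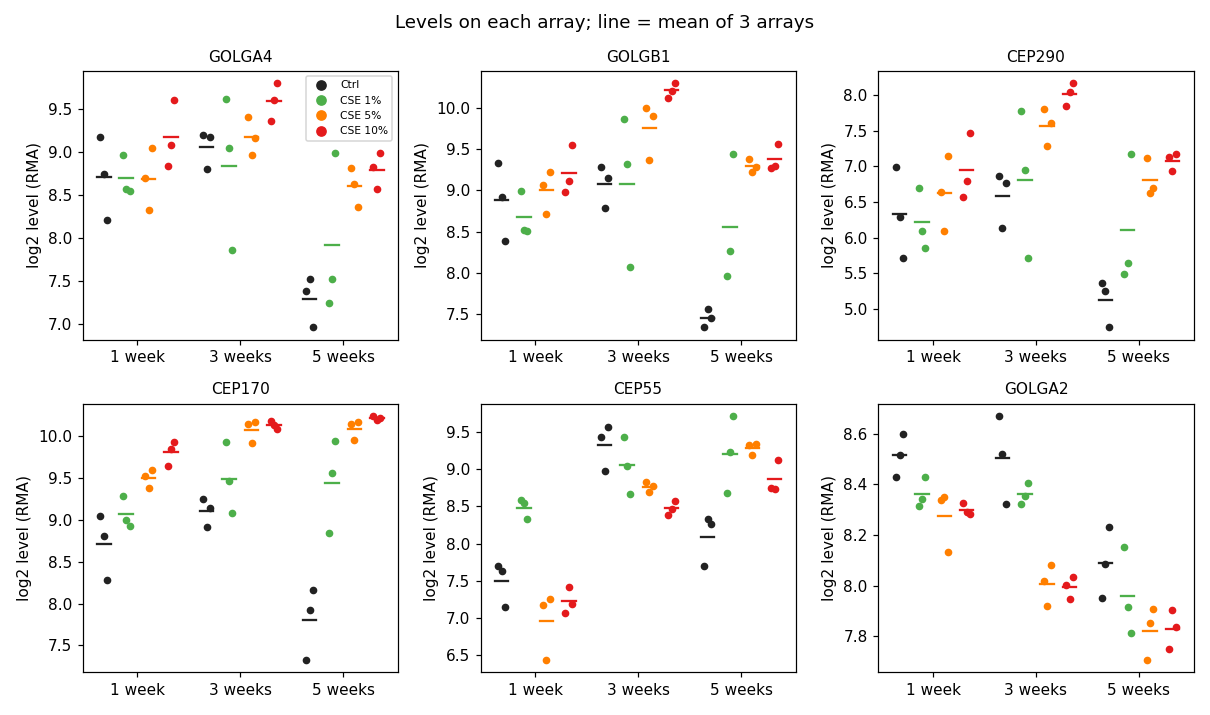
Log2 level of GOLGA4, GOLGB1, CEP290, CEP170, CEP55 and GOLGA2 in each of the 36 arrays (points) with the group mean (line), by week and exposure (controls, CSE 1%, 5% and 10%). The 5-week controls are the lowest group in GOLGA4, GOLGB1, CEP290 and CEP170, the 1-week controls and the 1-week groups of CSE 5% and 10% are low in CEP55, and the 5-week CSE groups are low in GOLGA2.

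The exposures at 5 weeks were next set against the controls of the same week. With CSE 1% 30 members were higher and 3 lower, with CSE 5% 35 and 5, and with CSE 10% 35 and 6. Over all clusters the shares were 20.3% higher and 33.5% lower with CSE 1%, 23.0% and 40.3% with CSE 5%, and 21.9% and 39.6% with CSE 10%. Among genes named by 1 symbol 26.9%, 29.5% and 27.9% were higher. The member medians were 0.64, 0.82 and 0.75, where those of all clusters were -0.14, -0.17 and -0.17. At the study's thresholds 7, 16 and 14 members were higher, against 3.22%, 7.14% and 7.02% of all clusters. CEP170 read 8.84, 9.56 and 9.93 with CSE 1%, 10.14, 9.96 and 10.17 with CSE 5% and 10.24, 10.19 and 10.21 with CSE 10%, all above the 5-week controls. With CSE 5% it was 4.88-fold higher than those controls (log2 difference 2.29, SE 0.218, adjusted p = 2.009e-09). The second cluster of CEP170 was higher there by 2.95 (SE 0.211, adjusted p = 6.558e-12). GOLGB1 was higher by 1.84 (SE 0.324, adjusted p = 2.55e-05), CEP126 by 1.81, CEP290 by 1.69 and CEP350 by 1.68. These 3 comparisons share the 5-week controls with the comparison between control weeks, so the same 3 arrays stand on the low side of both.

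Against the controls of weeks 1 and 3 the same exposed arrays gave other counts. With CSE 1% 4 members were higher and 4 lower, with CSE 5% 14 and 2, and with CSE 10% 10 and 3. The shares over all clusters were 7.86% higher and 7.43% lower with CSE 1%, 13.1% and 13% with CSE 5%, and 15% and 16.0% with CSE 10%. The member medians were 0.04, 0.29 and 0.20, and those of all clusters were within 0.02 of 0. At the study's thresholds 2 members were higher with CSE 5% and 1 with CSE 10%, against 1.30% and 1.20% of all clusters. GOLGB1 was now at 0.32 with CSE 5% (SE 0.281, adjusted p = 0.4421), CEP290 at 0.35 (adjusted p = 0.5035) and GOLGA4 at -0.28 (adjusted p = 0.5439). CEP126 was at 0.55 (adjusted p = 0.1025) and CEP350 at 0.36 (adjusted p = 0.2414). CEP170 stayed higher, at 1.18 with CSE 5% (SE 0.189, adjusted p = 1.863e-05) and 1.31 with CSE 10% (SE 0.189, adjusted p = 3.663e-06). Its second cluster was at 1.28 with CSE 5%. The count of 4 higher with CSE 1% was 10 without its replicate 1, and that of 10 with CSE 10% was 6 without its replicate 1 or 3. All of the genes called higher with CSE 5% or 10% were CEP genes. Of the 9 golgins limma called 0 higher with either. At an unadjusted p under 0.05 there was 1 golgin with each, and the share of all clusters at that threshold was not computed.

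**Figure D5:**
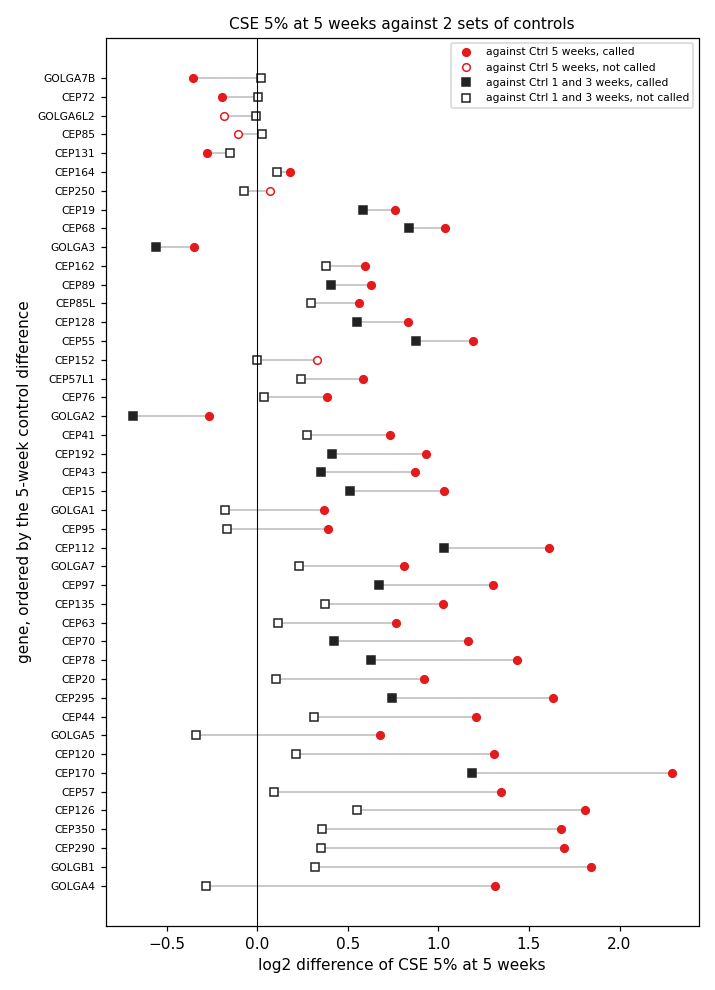
Difference of CSE 5% at 5 weeks (log2, horizontal axis) for each of the 44 genes against the 5-week controls (red circles) and against the 1-week and 3-week controls (black squares), filled where called. Against the 5-week controls CEP170 lies at 2.29 and GOLGA4 at 1.31, and against the other controls they lie at 1.18 and -0.28.

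The CEP genes that rose with CSE at 5 weeks against the earlier controls came from several structures. CEP68, a protein of the linker between centrioles, was higher with all 3 exposures, by 0.52, 0.84 and 0.75 (SE 0.0682; adjusted p = 1.463e-06, 1.036e-10 and 8.859e-10). Its levels were 7.68 to 7.86 with CSE 1%, 7.97 to 8.17 with CSE 5% and 7.88 to 8.18 with CSE 10%, and 7.20 to 7.33 in the 6 controls, with no overlap. CEP89, of the distal appendages, was higher by 0.46, 0.41 and 0.21. CEP112 was higher by 1.03 with CSE 5% (SE 0.22, adjusted p = 0.0007168) and by 0.85 with CSE 10%, and CEP19, which acts in the start of the cilium, by 0.58 and 0.35. CEP97, which caps centrioles, was higher by 0.67 and 0.66, and CEP295, which acts in turning new centrioles into centrosomes, by 0.75 and 0.66. CEP55 was higher by 0.80 with CSE 1% and 0.87 with CSE 5% than the mean of both control weeks. It was not higher than the 3-week controls: it read 9.19 to 9.33 with CSE 5% and 8.68, 9.23 and 9.72 with CSE 1%. The 3-week controls of CEP55 read 8.98 to 9.56 and its 1-week controls 7.15 to 7.70. Of the 22 proliferation genes 18 were higher with CSE 1%, 13 were higher and 1 lower with CSE 5%, and 1 was higher and 7 lower with CSE 10%.

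Against the earlier controls 4 golgins were lower with CSE 1%, 2 with CSE 5% and 2 with CSE 10%. GOLGA2 read 8.15, 7.91 and 7.81 with CSE 1%, 7.71, 7.85 and 7.91 with CSE 5%, and 7.75, 7.90 and 7.84 with CSE 10% at 5 weeks, all below the 8.32 to 8.67 of the earlier controls. It was lower by -0.55, -0.69 and -0.68 (SE 0.0782; adjusted p = 6.667e-06, 7.379e-08 and 8.609e-08). GOLGA3 read 8.60 to 8.84, 8.57 to 8.59 and 8.33 to 8.59, and was lower by -0.43, -0.56 and -0.64 (SE 0.0738). These 2 golgins were also lower with CSE 5% and 10% than in the 5-week controls, GOLGA2 by -0.27 and -0.26 and GOLGA3 by -0.35 and -0.43. The GOLGA2 call with CSE 5% there was lost without replicate 3 of the controls (-0.20) or replicate 1 of CSE 5% (-0.21). For both the lowest of the 36 arrays was a 5-week CSE array. GOLGA4 and GOLGA5 were lower with CSE 1%, by -0.96 (adjusted p = 0.03032) and -0.57 (adjusted p = 0.003326). With CSE 5% GOLGA5 stood at -0.34 (adjusted p = 0.06362), which was called in a separate fit (adjusted p = 0.04874). The 3 GOLGA4 arrays of CSE 1% read 7.25, 7.52 and 8.99, so that 1 of them lay within the controls. Of the CEP genes CEP131 was called lower here, by -0.19 with CSE 10% (adjusted p = 0.03903).

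The comparisons at weeks 1 and 3 use controls whose labels do not conflict. At 1 week 1 member was higher and 1 lower with CSE 1% (all clusters 3.41% and 1.90%), 5 and 0 with CSE 5% (5.99% and 4.84%) and 6 and 1 with CSE 10% (8.27% and 8.44%). Where the limma count was 0, with CSE 5%, 3 members were lower at an unadjusted p under 0.05, for which no share of all clusters was computed. At 3 weeks 2 were higher and 2 lower with CSE 1% (5.67% and 5.81%), 7 and 3 with CSE 5% (9.70% and 9.93%) and 10 and 5 with CSE 10% (14% and 12.5%). CEP68 was already higher at 1 week with CSE 5% (log2 difference 0.68, SE 0.0788, adjusted p = 3.189e-07) and CSE 10% (0.49), where it read 7.90 to 8.01 and 7.64 to 7.92 against 7.22 to 7.33. At 3 weeks it was higher by 0.40, 0.79 and 0.70 with the 3 exposures. No CSE 5% or 10% array of CEP68 overlapped the controls of its week.

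CEP170 was higher with CSE 5% and 10% from the first week. At 1 week it read 9.52, 9.38 and 9.60 with CSE 5% and 9.64, 9.85 and 9.93 with CSE 10%, against 9.04, 8.81 and 8.28, and was higher by 0.79 (SE 0.218, adjusted p = 0.01545) and 1.10 (SE 0.218, adjusted p = 0.0004657). At 3 weeks it was higher by 0.97 (adjusted p = 0.001501) and 1.04 (adjusted p = 0.0005878). The groups did not overlap in either week. At 3 weeks genes of the cilium moved with it: CEP162 by 0.61 and 0.83, CEP126 by 0.96 and 1.21, CEP19 by 0.47 and 0.37, and CEP290 by 1.43 with CSE 10% (SE 0.408, adjusted p = 0.009168). CEP112 was higher by 1.01 and 1.13. In the cilium list 4 of 6 genes were higher with CSE 10% at 3 weeks, with a median of 0.60. Of the golgins GOLGB1 was higher there, with 10.12, 10.21 and 10.30 against 9.28, 8.78 and 9.15, by 1.14 (SE 0.324, adjusted p = 0.008657).

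GOLGA3 was lower in every exposure contrast at weeks 1 and 3 except CSE 5% at 1 week, by -0.28 and -0.28 at 1 week and by -0.27, -0.50 and -0.42 at 3 weeks. Its CSE 1% call at 1 week (adjusted p = 0.04685) was lost without any 1 of its 6 arrays, with the replicate number as a block (adjusted p = 0.06364) and in a separate fit (adjusted p = 0.1476). The CSE 1% call at 3 weeks was lost without any of 4 single arrays, in a separate fit and with housekeeping centring (-0.16), and the CSE 10% call at 1 week without any of 4 single arrays and in a separate fit. GOLGA2 was lower with CSE 5% and 10% at 3 weeks, by -0.50 (SE 0.0903, adjusted p = 0.0001427) and -0.51 (SE 0.0903, adjusted p = 8.309e-05). CEP85 was lower there by -0.34 and -0.40. CEP55 was higher with CSE 1% at 1 week, by 0.99 (SE 0.227, adjusted p = 0.006781), and lower with CSE 10% at 3 weeks, by -0.85 (SE 0.227, adjusted p = 0.005584), as was CEP152, by -0.71. The proliferation list gave 21 of 22 genes higher with CSE 1% at 1 week and all 22 lower with CSE 10% at 3 weeks, and its part in the CEP55 and CEP152 values was not tested.

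The same time contrast, 5 weeks against weeks 1 and 3, was then taken within each exposure, on arrays that the control contrast does not use. With CSE 1% 0 members were higher and 1 lower in the limma fit, against 3.84% and 3.54% of all clusters. With CSE 5% 3 were higher and 2 lower (4.37% and 3.16%), and with CSE 10% 2 and 2 (3.46% and 3.53%). At an unadjusted p under 0.05, 5 members were higher and 2 lower with CSE 1%, and the share of all clusters at that threshold was not computed. GOLGA2 was lower in all 3, by -0.40, -0.32 and -0.32, and GOLGA3 with CSE 5% and 10%, by -0.24 and -0.29. The GOLGA3 call with CSE 5% was lost without any of 7 single arrays, with the replicate number as a block (adjusted p = 0.05752) and after cyclic loess, and that with CSE 10% without replicate 1 of the 5-week group. The GOLGA2 calls with CSE 5% and 10% were likewise lost without replicate 1 of the 5-week group, at -0.26 and -0.28. CEP55 was higher with CSE 5% by 1.42 (SE 0.197, adjusted p = 9.104e-06) and CSE 10% by 1.02 (SE 0.197, adjusted p = 0.0009608), and CEP128 by 0.75 and 0.41. The CEP128 call with CSE 10% was lost without any of 6 single arrays. CEP70 with CSE 5% stood at the threshold, at 0.49 with an adjusted p that rounds to 0.05. GOLGB1 differed by -0.32, -0.09 and -0.34 and GOLGA4 by -0.85, -0.33 and -0.59 in the 3 exposures, and none of these 6 values was called. In the proliferation list 13, 22 and 20 of 22 genes were higher.

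The difference between the exposed and the control time contrasts was tested as an interaction. It was higher for 24 members and lower for 1 with CSE 1% (all clusters 13.8% and 15.4%), 31 and 1 with CSE 5% (16.1% and 18.3%), and 27 and 3 with CSE 10% (14.8% and 21.2%). The member medians were 0.57, 0.69 and 0.59, and those of all clusters -0.11, -0.11 and -0.13. For CEP170 the interaction was 1.27, 1.40 and 1.35, for GOLGB1 1.20, 1.44 and 1.19 and for GOLGA5 0.85, 0.96 and 0.97. The 3 interactions share the control arrays, and with CSE 1% the count was 15 without replicate 1 of the 5-week controls and 15 without replicate 3 of CSE 1% at 5 weeks, and with CSE 10% it was 17 without replicate 1 of the 5-week controls.

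The order of the exposures at 5 weeks was read with no control array. Between CSE 5% and CSE 1% 2 members were higher and 0 lower in the limma fit, where 2.28% and 1.26% of all clusters were. They were CEP19, by 0.53 (SE 0.118, adjusted p = 0.006704), and CEP68, by 0.31 (SE 0.0788, adjusted p = 0.02048). Between CSE 10% and CSE 5% the limma fit called 0 higher and 0 lower, against 0.426% and 1.80% of all clusters. At an unadjusted p under 0.05 the members were 11 higher and 0 lower in the first comparison and 0 and 3 in the second. The share of all clusters at that threshold was not computed. The count of 2 rested on single arrays: it was 9 without replicate 3 of CSE 1%, 1 without replicate 2 of either group and 0 without replicate 1 of CSE 5%.

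Members varied more between replicates than other genes did. The median SD within groups was 0.189 over the 44 genes, from 0.0824 to 0.536, and 0.134 over all genes. Across the 44 genes those with the largest SD were also those with the largest fall in the 5-week controls (Spearman rho -0.805, a description over genes read on the same arrays). Some groups held an array that stood apart in many members at once. In replicate 3 of the 1-week controls 34 of the 44 genes lay below their group mean, with a median deviation of -0.22, where all genes had 0.03. In replicate 3 of CSE 1% at 3 weeks 30 did, and in replicate 1 of CSE 1% at 5 weeks 32 did, with a median of -0.29, while in replicate 3 of that group 13 did, with a median of 0.22. GOLGA4 shows it: within CSE 1% it read 9.61, 9.04 and 7.86 at 3 weeks and 7.25, 7.52 and 8.99 at 5 weeks. These arrays carry no label of their own, and the part of RNA quality or culture state was not tested.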

How the data were processed

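RNA of A549 cells was measured in 12 groups of 3 arrays. The authors background-corrected, normalized and summarised the probes with RMA in the package oligo and deposited log2 values, which ran from 2.293 to 14.49. R 2.11.0, RMA and limma stand in the submitters' processing notes, and a genome build is not given in the sources used. RMA equalises the distributions of the probe intensities before they are summarised, so a shift shared by all genes alike could not be seen. The summarised values still differed in spread between arrays, as given above. No array was left out or copied another (highest correlation 0.9963), and no column lacked a sample. The number of arrays limits the precision.

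Genes were named from the platform annotation, in which 19460 clusters carry 1 symbol, 1754 several and 12083 none; members were not taken from the latter. All 44 matched a RefSeq symbol. A mean per group was fitted to all arrays with limma 3.58.1 in R 4.3.3 (24 residual degrees of freedom, 3.906 prior), without a filter or further normalization. Calls needed a Benjamini-Hochberg adjusted p under 0.05 over 33297 clusters, two-sided; a second rule used a log2 difference beyond 1 and B above 0. All adjusted p-values come from this limma fit. The steps were tested on simulated data.

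Members, lists and tests were chosen with earlier results of these data known. Named are CEP170, the 8 CEP genes and 4 golgins with the largest called difference and no overlap in the control comparison, the golgins by role, members called against the majority, the 4 smallest differences, and the members with the smallest p of the other comparisons; further members were named for their role after their values were seen. Alternatives were the replicate block, cyclic loess, centring on housekeeping changes, the 60% brightest clusters, separate fits, a trended and robust variance, the mean of a gene's clusters, RefSeq symbols and leaving out single arrays. Chosen after seeing the data were the single control weeks as reference, the 3-week against the 1-week controls and the second CEP170 cluster. Promoters came from RefSeq (GRCh38.p14; 39 of 44 genes). Protein sequences, real-time PCR and protein assays were not used.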

Additional observations from a re-analysis of the deposited data

Results flagged for a closer look

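A difference between the time contrast of an exposure and that of the controls, tested as an interaction in the limma fit, marked the following genes out. With CSE 1% it was 1.27 for CEP170 (SE 0.267, adjusted p = 0.001411), 0.91 for CEP20 (adjusted p = 0.0004112), 0.85 for GOLGA5 (adjusted p = 0.002415) and -0.44 for GOLGA7B (adjusted p = 0.004112). With CSE 5% it was 1.73 for CEP55 (SE 0.278, adjusted p = 8.14e-05), 1.03 for CEP128, 1.22 for CEP70 and -0.37 for GOLGA7B. With CSE 10% it was 1.35 for CEP170, 1.34 for CEP55 and 0.97 for GOLGA5, and -0.26 for CEP131, -0.29 for CEP72 and -0.29 for GOLGA7B.

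The 3 comparisons share the control arrays, the 5-week controls with conflicting labels among them. Without replicate 1 of the 5-week controls the CSE 1% value of GOLGA5 was 0.55, and without replicate 2 the CSE 10% value of GOLGA7B was -0.17 and no longer called. After cyclic loess the GOLGA7B values were -0.23, -0.17 and -0.04, CEP131 was at -0.19 and CEP72 at -0.23, and none of these was called. With CSE 10% the calls of GOLGA7B, CEP131 and CEP72 were also lost without 1 array, for 7, 10 and 2 of the arrays left out; GOLGA7B was lost in a separate fit too.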

How the results depend on the processing

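Depth in the sense of counts does not apply to arrays, and 3 arrays a group limit what can be called. The 32 genes lower in the 5-week controls were 25 to 35 under the other settings with all arrays and the same reference, 24 to 33 without 1 array, and 32 with the replicate number as a block. The numbers do not pair the samples: deviations of arrays with the same number correlated between -0.59 and 0.50 (median -0.0054). With the block, lower members with CSE 1% at 1 week went from 1 to 0 and in the time contrast of CSE 5% from 2 to 1; it moved no other count by over 1.5 times. Cyclic loess moved the median of all clusters in the control comparison from 0.11 to -0.0072, and that of the members from -0.52 to -0.56; centring on housekeeping changes moved them to 0.17 and -0.47. Shares of all clusters were computed for the main fit and for the single control weeks as reference. The counts under the other settings and without 1 array have no such share beside them. The cause of the changes below was not tested.

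For the 5-week controls, members higher (2) were 1 after cyclic loess, 5 with housekeeping centring, 1 among the brightest clusters, 1 in a separate fit, 6 against the 1-week controls alone and 1 to 3 without 1 array; members lower were 18 against the 1-week controls alone. Against those controls alone CEP55 turned to 0.60 and CEP128 to 0.34, and against the 3-week controls alone CEP85 turned from 0.13 to -0.13 (called under neither).

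Under cyclic loess CSE 1% at 1 week gave 3 higher, CSE 5% at 1 week 2 lower, CSE 5% at 5 weeks 3 lower, the time contrasts 2 higher with CSE 1% and 1 lower with CSE 5%, and the interactions 0 lower with each exposure. With housekeeping centring CSE 1% at 3 weeks gave 4 higher and 0 lower, CSE 10% at 3 weeks 18 higher, CSE 1% at 5 weeks 1 lower, CSE 1% and 10% against the earlier controls 8 and 21 higher, the CSE 1% time contrast 3 higher and the CSE 5% interaction 3 lower. Among the brightest clusters CSE 1% at 1 week gave 2 higher, CSE 5% at 1 week 1 lower, CSE 1% at 5 weeks 1 lower, the CSE 1% time contrast 1 higher, the interactions with CSE 1% and 5% 0 lower, and CSE 5% against CSE 1% 1 higher.

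In separate fits the 3-week against the 1-week controls gave 5 higher. At 1 week CSE 1% gave 0 lower, CSE 5% 3 higher and CSE 10% 0 lower. At 3 weeks CSE 1% gave 1 higher and 1 lower, CSE 5% 12 and 5, and CSE 10% 17 higher. At 5 weeks CSE 1% gave 16 higher and 0 lower, CSE 5% 1 lower and CSE 10% 3 lower. The time contrasts gave 6 higher and 1 lower with CSE 5% and 4 higher with CSE 10%, the CSE 1% interaction 11 higher, and CSE 5% against CSE 1% 0.

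Without 1 array, at 1 week CSE 1% gave 0 to 1 higher and 0 to 0 lower, CSE 5% 2 to 5 higher and 0 to 1 lower, and CSE 10% 2 to 7 higher and 0 to 1 lower. CSE 1% gave 0 to 2 lower at 3 weeks and 0 to 5 lower at 5 weeks, and CSE 5% 3 to 5 lower at 5 weeks. Against the earlier controls CSE 1% gave 4 to 10 higher and 2 to 5 lower, and CSE 10% 6 to 15 higher. The time contrasts gave 0 to 2 higher and 1 to 2 lower with CSE 1%, 0 to 2 lower with CSE 5%, and 1 to 2 higher and 0 to 2 lower with CSE 10%. The interactions gave 15 to 30 higher and 1 to 2 lower with CSE 1%, 1 to 2 lower with CSE 5%, and 17 to 28 higher and 1 to 3 lower with CSE 10%. CSE 5% against CSE 1% gave 0 to 9 higher.

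Of the values of single genes under alternatives that kept all arrays, 870 kept their direction and side of the threshold, 46 fell short of it, 14 passed it and 3 reversed. Without 1 array these were 1007, 96, 4 and 9. Those 9 were near 0 and called neither way. Without 1 array CEP57 ran from -0.047 to 0.17, CEP72 from -0.034 to 0.054, CEP85 from -0.0022 to 0.081 and GOLGA7B from -0.028 to 0.084 with CSE 5% against the earlier controls, and CEP250 from -0.00025 to 0.13 against the 5-week controls.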
